A study of Mus musculus with 2 samples.

Results

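The interferon regulatory factors (IRFs) were followed in the mRNA of 2 libraries of mouse monocytic myeloid-derived suppressor cells (M-MDSC). The members were taken by name, as Irf1, Irf2, Irf3, Irf4, Irf5, Irf7, Irf8 and Irf9, which are 8 of 34745 listed genes. Bone marrow cells of C57BL/6 mice were cultured for 7 days with GM-CSF alone (CHBP- M-MDSC) or with GM-CSF and CHBP (CHBP+ M-MDSC), and M-MDSC were then separated by flow cytometry. CHBP, the cyclic helix B peptide, is a derivative of erythropoietin that does not drive red cell formation. Both libraries therefore share the GM-CSF, the culture time and the sort for CD11b+Ly6G-Ly6C high cells. The strain label of the CHBP- library reads C57BL/6 and that of the CHBP+ library C57BL/7, while the study's methods give C57BL/6, and whether the strains differed was not tested. With 1 library per condition there were no replicates, so an effect of CHBP and a difference of the libraries of any other origin cannot be told apart.

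IRFs are transcription factors that bind DNA through a conserved domain at their amino end, at sites built from GAAA repeats. IRF3, IRF5 and IRF7 are switched on by sensors of nucleic acids and Toll-like receptors, IRF9 acts downstream of the interferon receptor, and IRF1 and IRF2 act on many of the same interferon-responsive genes. IRF4 and IRF8 bind poorly alone and act with partners such as PU.1 and BATF. In myeloid cells, IRF8 is known for driving progenitors toward monocytes and type 1 dendritic cells and away from granulocytes, and IRF4 for the dendritic cells of GM-CSF cultures and for alternative activation of macrophages.

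The counts summed to 16484504 reads in the CHBP- and 16280466 in the CHBP+ library. For a count of 0, the one-sided 95% upper limit is about 3 reads. These correspond to 0.182 and 0.184 CPM (counts scaled to a common library total). Levels are given as reads, as CPM, or as the deposited FPKM, which are scaled to a gene length in kilobases as well as to the total of counted reads. The log2 ratio of a gene is log2((CHBP+ FPKM + 1)/(CHBP- FPKM + 1)), and the added 1 FPKM makes it too small for weakly expressed genes. Genes that reached 1 FPKM in either library were kept (10948 genes), and their median log2 ratio was -0.03. The reads of a gene were also compared between the libraries with a two-sided exact binomial test, adjusted by the Benjamini-Hochberg method over 14162 genes with at least 10 reads. It compares the libraries and not the conditions, and it covers counting error only, as do all the 95% intervals given here. Across the genes kept, which are not independent, the log2 ratio followed transcript length, with a Spearman's rho of 0.687 against the longest coding transcript (10211 genes), so the log2 ratios of the genes described below are also given after removal of a fitted trend with coding transcript length and GC content (the length and GC trend). Of the sorting antigens, Itgam (CD11b) was listed in 2 entries, which had 18653 and 8703 reads in CHBP- and 27265 and 13147 in CHBP+ M-MDSC. Ly6c2 had 4091 and 2411 reads and Ly6g 46 and 44 reads, in the same order of libraries.

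The stretches upstream of the annotated transcript starts are shown for the 3 Irf genes that held a match to one of 4 motifs, and for Irf4, whose reads differed most in number between the libraries and whose window held no match. They are the 250 bases before the start in the RefSeq annotation of GRCm38.p6. Irf1 lies at chr11:53769764-53770013, Irf2 at chr8:46739495-46739744, Irf4 at chr13:30748983-30749232 and Irf8 at chr8:120736108-120736357, all on the plus strand. Capitals mark matches to the cores named after the sequences.
Irf1: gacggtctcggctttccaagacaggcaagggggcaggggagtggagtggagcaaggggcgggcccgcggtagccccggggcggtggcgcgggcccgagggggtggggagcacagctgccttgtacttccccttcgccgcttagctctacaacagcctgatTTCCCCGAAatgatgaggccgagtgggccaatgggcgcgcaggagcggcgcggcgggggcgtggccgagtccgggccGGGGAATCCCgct
Irf2: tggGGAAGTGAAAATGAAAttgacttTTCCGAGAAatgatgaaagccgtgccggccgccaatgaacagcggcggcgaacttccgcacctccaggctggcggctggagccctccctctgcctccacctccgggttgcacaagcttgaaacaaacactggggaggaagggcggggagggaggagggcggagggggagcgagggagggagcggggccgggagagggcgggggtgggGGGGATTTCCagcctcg
Irf4: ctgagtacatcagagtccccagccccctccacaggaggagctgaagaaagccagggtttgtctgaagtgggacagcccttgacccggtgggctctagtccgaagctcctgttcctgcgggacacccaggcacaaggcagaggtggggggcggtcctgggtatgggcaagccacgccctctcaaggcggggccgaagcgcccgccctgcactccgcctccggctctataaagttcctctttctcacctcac
Irf8: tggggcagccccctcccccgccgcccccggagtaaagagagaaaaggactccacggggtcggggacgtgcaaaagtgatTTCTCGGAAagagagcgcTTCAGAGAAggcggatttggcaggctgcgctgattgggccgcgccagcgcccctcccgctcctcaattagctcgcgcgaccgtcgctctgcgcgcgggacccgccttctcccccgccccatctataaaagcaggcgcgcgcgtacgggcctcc

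The 4 motifs were searched on both strands. They were the core of the interferon-stimulated response element (GAAANNGAAA), to which IRFs bind, the gamma-activated site core (TTCNNNGAA), to which STAT dimers bind and which reads the same on both strands, the ETS-IRF composite core (GGAANNGAAA), to which PU.1 binds together with IRF4 or IRF8, and the kappa-B core, to which NF-κB binds. Of 32851 RefSeq windows of the same 250 bases, 2.98% held the first, 7.02% the second, 2.30% the third and 7.25% the kappa-B core. The window of Irf1 held the gamma-activated site core TTCCCCGAA from -90 to -82 and a kappa-B core, GGGGAATCCC, from -13 to -4, counted from the transcript start. The window of Irf2 held the ETS-IRF core GGAAGTGAAA from -247 to -238, which overlaps the response element core GAAAATGAAA from -241 to -232, and farther down the gamma-activated site core TTCCGAGAA from -224 to -216 and the kappa-B core GGGGATTTCC from -17 to -8. The window of Irf8 held 2 gamma-activated site cores, TTCTCGGAA from -171 to -163 and TTCAGAGAA from -153 to -145. A match is a string of letters and not a binding site. In the windows of Irf3, Irf4, Irf5, Irf7 and Irf9, and in the second windows of Irf1, Irf8 and Irf9, these letters were not found, and 8 Irf genes had 11 windows in all.

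**Figure D1:**
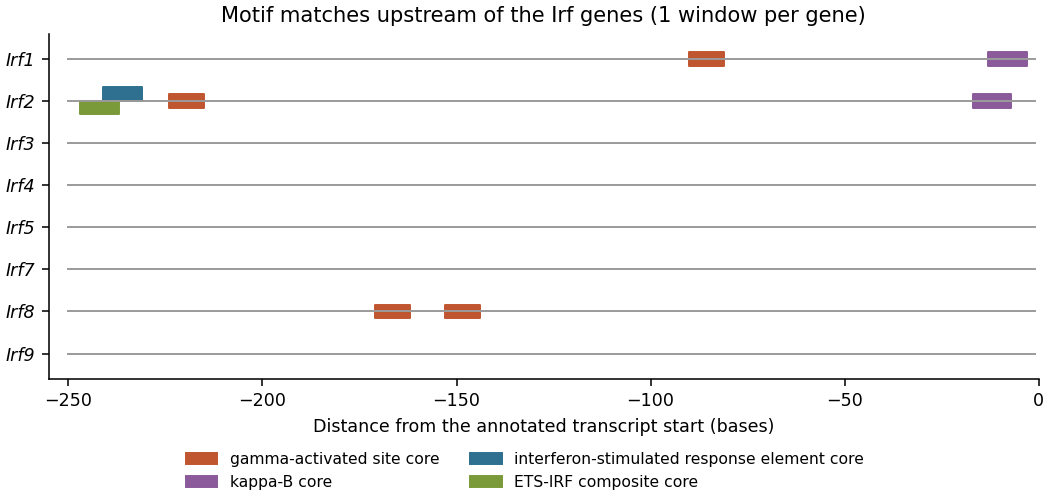
Positions of motif matches in the 250 bases upstream of the annotated start of 8 Irf genes, 1 window per gene, with distance from the start on the horizontal axis. Only Irf1, Irf2 and Irf8 hold matches in these windows, and the overlapping pair of cores at the far end of the Irf2 window lies from -247 to -232.

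All 8 Irf genes passed the minimum of 1 FPKM, and they spanned a wide range. By FPKM, Irf5 stood highest in both libraries, with 36.8 in CHBP- and 37.0 in CHBP+ M-MDSC, and Irf2 followed with 35.0 and 36.6, so that their intervals overlapped. In CHBP- M-MDSC the order went on with Irf3 (26.4), Irf4 (20.7), Irf8 (12.9), Irf1 (6.22), Irf9 (4.79) and Irf7 (1.23). In CHBP+ M-MDSC the order was the same but for Irf4 (27.3), which stood above Irf3 (21.2). Apart from Irf5 and Irf2, no neighbors in either order had overlapping counting intervals.

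The order depended on the gene length by which reads were divided. The length that the deposited FPKM imply for Irf8 is 8671 bases, against 3469 bases for its longest annotated transcript and 7055 bases for all its annotated exons merged. For Irf4 the 3 lengths were 4857, 4715 and 4715 bases. For Irf7, the implied length of 6421 bases exceeded the 3776 bases that the gene spans on the chromosome, and for Irf9 it was 8582 bases over a span of 6460. Across 13235 genes the implied length equalled the sum of the lengths of all distinct annotated exons, overlapping ones counted more than once, within 1 base in 50.8%. With such a length, overlapping exons lower the FPKM that a given number of reads yields. Among the members, the implied length equalled that sum for Irf2, Irf4, Irf8 and Irf9, and not for Irf1, Irf3, Irf5 and Irf7. For Irf3 the implied 2374 bases lay below the 3187 bases of its merged exons. Each gene's length is the same in both libraries, so it cancels in the ratio of reads. The log2 ratio depends on it through the added 1 FPKM. For Irf7 the log2 of the ratio of reads was -0.21, while the log2 ratio was -0.11.

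Per kilobase of the longest transcript, Irf8 had a level of 32.3 CPM in CHBP- M-MDSC, between Irf2 (35.0) and Irf3 (30.9), and its interval overlapped both. On this scale Irf4 had 21.4, below Irf8. In CHBP+ M-MDSC, Irf8 had 31.5 and Irf4 28.1 on this scale, again in that order. Per kilobase of merged exons the order turned, with Irf4 at 21.4 and Irf8 at 15.9 in CHBP- and 28.1 and 15.5 in CHBP+ M-MDSC. Irf5 stayed highest on each scale, at 58.3 and 58.6 per kilobase of the longest transcript. Irf1, Irf9 and Irf7 stayed below the other kept members on each scale.

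**Figure D2:**
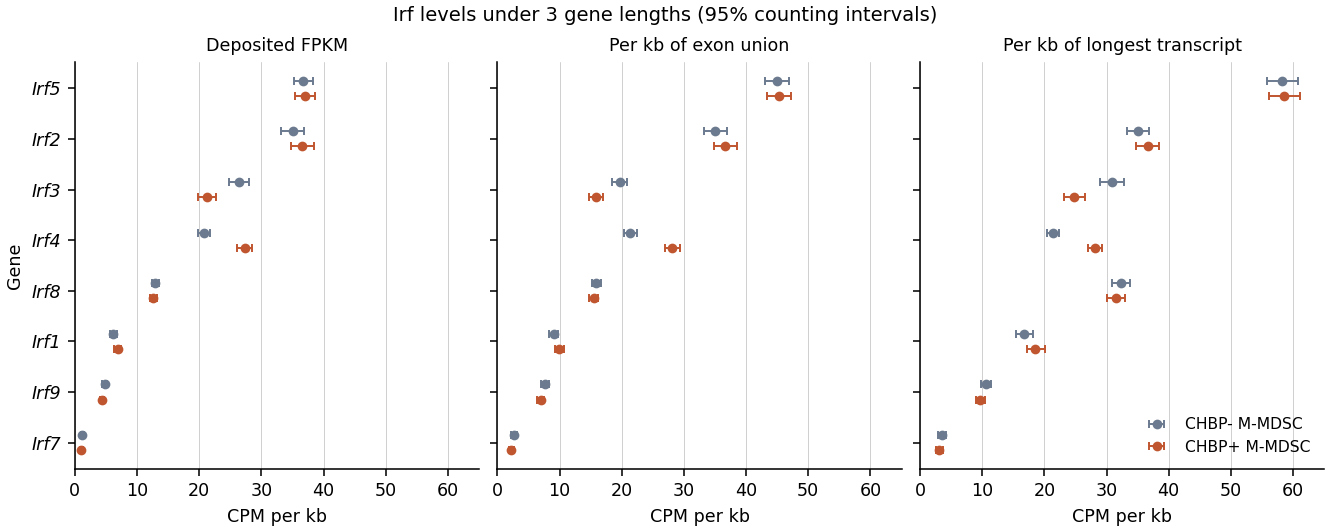
Levels of 8 Irf genes in the 2 libraries, in CPM per kilobase, with 95% Poisson intervals, under 3 gene lengths: that of the deposited FPKM, merged exons, and the longest transcript. Irf8 lies below Irf4 in the first 2 panels and above it in the third, in both libraries.

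No member differed by 1.5-fold or more. Of the 8 kept Irf genes, 0 were at least 1.5-fold higher in CHBP+ M-MDSC, beside 3.42% of all genes kept (374 genes), and 0 were at least 1.5-fold lower, beside 2.89% (316 genes). After removal of the trend with gene length as the FPKM imply it, the split over all genes was 303 higher and 165 lower. After removal of the length and GC trend, which was fitted for 10211 of the genes kept, it was 189 and 100. By the read test, 1 of 8 members was higher, Irf4, beside 21.9% of all genes tested, and 1 of 8 was lower, Irf3, beside 22.2%. The other 6 did not pass. With 8 members, 1 call in each direction (12.5%) is near these shares.

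**Figure D3:**
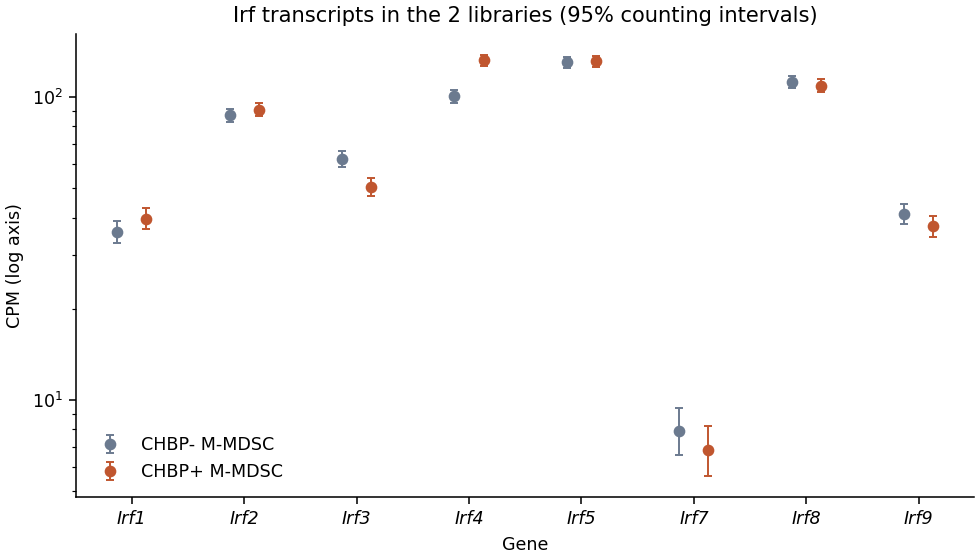
Reads of the 8 Irf genes in CPM, on a log axis, in CHBP- and CHBP+ M-MDSC, with 95% Poisson intervals. The intervals of the 2 libraries are apart for Irf3 and Irf4 and overlap for the others, and Irf7 lies lowest, below 10 in both.

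Of the factors tied to myeloid fate, Irf4 was higher in CHBP+ M-MDSC and Irf8 was nearly level. Irf4 (ENSMUSG00000021356, chromosome 13 from 30749226 to 30766927 in GRCm38) had 1660 reads in CHBP- and 2158 in CHBP+ M-MDSC, or 101 and 133 CPM. Its reads were 1.32-fold higher (95% interval 1.23 to 1.40; exact binomial test, adjusted p = 3.70e-16), and its log2 ratio was 0.38. The longest transcript of Irf4 has 4715 bases, for which the length and GC trend alone gave 0.17, and after its removal the log2 ratio was 0.22. That lies within the SD of 0.244 of all genes kept around the trend. Removal of the trend with the length that the FPKM imply instead left 0.41.

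Irf8 (ENSMUSG00000041515, chromosome 8 from 120736358 to 120756694) had 1849 reads in CHBP- and 1778 in CHBP+ M-MDSC, or 112 and 109 CPM. The ratio of its reads was 0.974 (95% interval 0.912 to 1.04; exact binomial test, adjusted p = 0.560). Its log2 ratio was -0.04, and 0.03 without the length and GC trend. Gm20388, a listed gene whose span covers all of Irf8, had 0 reads in both libraries.

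The balance of the pair was then taken within each library, where any scaling between libraries cancels. Irf4 reads per Irf8 read were 0.898 in CHBP- and 1.21 in CHBP+ M-MDSC, and on the FPKM scale the same quantity was 1.60 and 2.17. Per kilobase of the longest transcript it was 0.661 and 0.893, so which of the pair is the more abundant depended on the length used. The shift between the libraries did not, at 1.35-fold toward Irf4 (log2 0.44, 95% interval 0.30 to 0.57; two-sided Fisher's exact test of the reads, p = 9.11e-11). Irf4 and Irf8 differ in transcript length, and without the length and GC trend the shift was 0.18 on the log2 scale.

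Genes most like each of the pair were found by the distance between points in the plane of log2(FPKM + 1) in the 2 libraries, which matches 2 values only. Nearest to Irf4 were Rb1, with 21.2 and 26.8 FPKM at a distance of 0.0395, Atxn2l, with 20.7 and 26.5 FPKM at 0.0421, and Abcc1, with 21.1 and 28.2 FPKM at 0.0494. Nearest to Irf8 were Cdca7l, with 13.1 and 12.6 FPKM at 0.0144, Eif3j2 at 0.0172, and Mppe1, with 13.1 and 12.6 FPKM at 0.0223.

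Among the factors switched on by pathogen sensors, Irf3 was lower in CHBP+ M-MDSC, and Irf5 and Irf7 did not pass the test. Irf3 (ENSMUSG00000003184, chromosome 7 from 44997648 to 45002847), the factor that TBK1 activates for early interferon beta transcription, had 1033 reads in CHBP- and 821 in CHBP+ M-MDSC. The ratio of its reads was 0.805 (95% interval 0.733 to 0.883; exact binomial test, adjusted p = 1.59e-05), with a log2 ratio of -0.30. The longest transcript of Irf3 has 2031 bases, and its log2 ratio was -0.12 without the length and GC trend.

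Irf5 (ENSMUSG00000029771, chromosome 6 from 29526625 to 29541871), known for inflammatory cytokine transcription downstream of MyD88, had 2152 and 2137 reads. The ratio was 1.01 (95% interval 0.947 to 1.07; exact binomial test, adjusted p = 0.923). Its log2 ratio of 0.01 became 0.15 without the length and GC trend. Tnpo3, which shares 1045 bases with the span of Irf5, had 1253 and 1529 reads, and whether the counting used strand is not stated.

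Irf7 (ENSMUSG00000025498, chromosome 7 from 141262706 to 141266481), the interferon-inducible amplifier of interferon alpha transcription, was the lowest of the kept members. It had 130 reads in CHBP- and 111 in CHBP+ M-MDSC (1.23 and 1.06 FPKM). The ratio was 0.865 (95% interval 0.665 to 1.12; exact binomial test, adjusted p = 0.401), so a difference was not detectable at this depth. Its log2 ratio was -0.11, and 0.03 without the length and GC trend. Phrf1, which shares 45 bases with its span, had 554 and 753 reads, and it supplied 81.0% and 87.2% of the reads when both genes were summed, so that the summed value of 0.35 is largely that of Phrf1.

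Irf9, Irf1 and Irf2, which act at interferon-responsive genes, did not pass the test. Irf9 (ENSMUSG00000002325, chromosome 14 from 55603571 to 55610030), the DNA-binding subunit of the complex that answers type I interferon, had 677 and 611 reads, with a ratio of 0.914 (95% interval 0.818 to 1.02; exact binomial test, adjusted p = 0.197). Its log2 ratio was -0.11, and -0.08 without the length and GC trend. Rnf31, which shares 123 bases with its span, had 473 and 456 reads.

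Irf1 (ENSMUSG00000018899, chromosome 11 from 53770014 to 53778374), a short-lived activator induced by interferon gamma, had 591 and 646 reads, with a ratio of 1.11 (95% interval 0.988 to 1.24; exact binomial test, adjusted p = 0.145). Its log2 ratio was 0.13, and 0.26 without the length and GC trend. Irf2 (ENSMUSG00000031627, chromosome 8 from 46739745 to 46847458), often an antagonist of IRF1 at shared sites, had 1434 and 1480 reads, with a ratio of 1.05 (95% interval 0.971 to 1.12; exact binomial test, adjusted p = 0.358). Its log2 ratio was 0.06, and 0.10 without that trend. Among the 3 genes whose windows held motif matches, Irf1, Irf2 and Irf8, none passed the read test with library totals. By that test 21.9% of all genes were higher and 22.2% lower, and a link between motifs and reads was not tested.

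The expected shares of the read test were also taken from the length and GC trend, a setting chosen after the data had been seen. With these, 3 of 8 members were higher (37.5%), beside 14.9% of 10211 genes tested (1523 genes), and 0 were lower, beside 16.8% (1714 genes). Those higher were Irf1 (adjusted p = 0.00129), Irf4 (adjusted p = 0.000459) and Irf5 (adjusted p = 0.000233, exact binomial test for all 3), while Irf3 had an adjusted p of 0.308. Irf4 passed under both versions, and Irf3 did not pass with these shares.

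**Figure D4:**
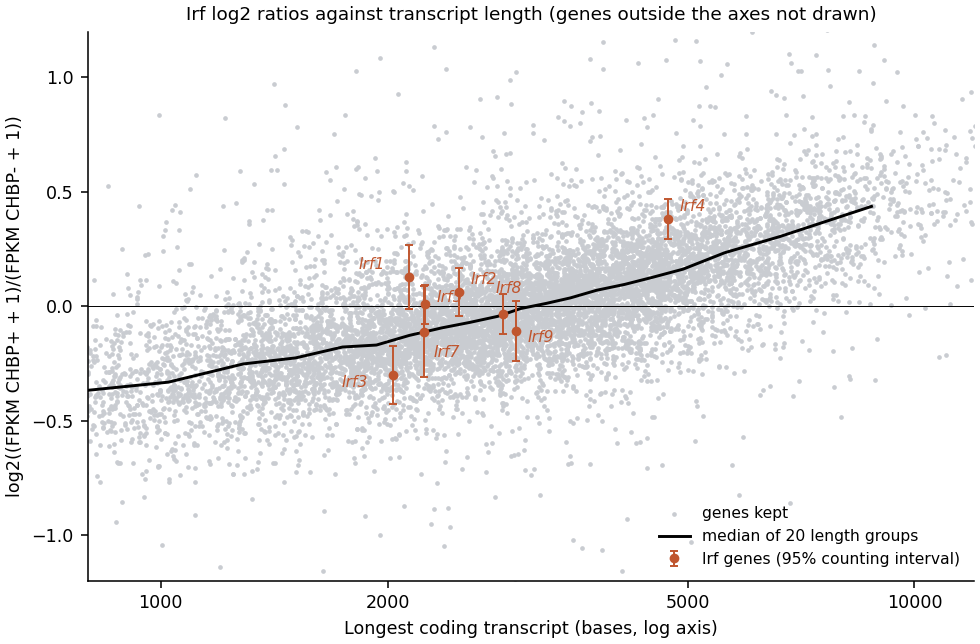
Log2 ratio of each gene kept with at least 10 reads and a coding transcript against the length of that transcript in bases (log axis), with the median of 20 length groups as a line and 8 Irf genes in color with 95% counting intervals. Irf4, with the longest transcript of the 8, has a log2 ratio of 0.38 and lies above the line. Irf3, with the shortest, has a log2 ratio of -0.30 and lies below it.

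The genes around the IRFs were grouped by role, and the calls of each group are given beside those over all genes tested, of which 21.9% were higher and 22.2% lower by the read test with library totals, and 14.9% and 16.8% with expected shares from the length and GC trend. Of all genes kept, 46.3% had a positive log2 ratio. Pairs of values in parentheses give the log2 ratio first and then the log2 ratio without the length and GC trend. Where a gene is said to be named afterward, it was chosen after its values had been seen.

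Among sensors, adaptors and kinases upstream of the IRFs, 17 of 20 genes kept had a positive log2 ratio, with a median of 0.22 beside -0.03 over all genes kept, and of 0.11 without the trend. By the read test 12 of 21 were higher (57.1%, beside 21.9% of all genes) and 2 lower (9.52%, beside 22.2%), the latter being Myd88 (-0.17, -0.01) and Slc15a4 (-0.18, -0.09), named afterward. With expected shares from the trend, 8 of 20 were higher and 0 lower. Tlr4, the receptor for lipopolysaccharide, had 556 reads in CHBP- and 4443 in CHBP+ M-MDSC, an 8.09-fold difference (95% interval 7.41 to 8.85), with a log2 ratio of 2.79, or 2.64 without the trend. Traf3, an adaptor needed for IRF3 and IRF7 activation, had 356 and 1058 reads (1.03, 0.74). Chuk, a kinase of the IKK complex, had 1221 and 1527 reads (0.31, 0.22). Tbk1 (0.03, 0.01) and Ikbke (0.06, 0.08), which encode kinases that phosphorylate IRF3 and IRF7, did not pass the test. Of the Irak kinase genes, named afterward, Irak1 was higher, with 911 and 1426 reads (0.56, 0.51). Irak2 (0.10, 0.12) and Irak4 (0.05, 0.00) did not pass the test.

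Among the 9 interferon receptor chains and their kinases, all kept, 4 were higher (44.4%, beside 21.9% of all genes) and 2 lower (22.2%, as over all genes) by the read test, with a median log2 ratio of 0.10, or 0.03 without the trend. With expected shares from the trend the counts were 3 and 2. Jak1 had 5947 and 7581 reads (0.36, 0.18). Jak2 had 6971 and 8059 reads (0.22, 0.01), so that its difference was nearly all within the trend. Ifngr1, a chain of the interferon gamma receptor, had 3464 and 3299 reads (-0.05, 0.05) and its partner chain Ifngr2 had 3326 and 2970 (-0.14, -0.15). Named afterward, the interferon alpha and beta receptor chains Ifnar1 (0.32, 0.24) and Ifnar2 (-0.11, -0.10) were higher and lower, and the kinase gene Tyk2 (0.11, 0.03) was higher. The 8 interferon ligands listed, among them Ifna1, Ifna2, Ifna4 and Ifnb1, had 0 reads in both libraries, so each could be present at up to 0.182 CPM in CHBP- and 0.184 CPM in CHBP+ M-MDSC.

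The DNA-binding partners and corepressors of the IRFs were divided, with 6 of 13 genes kept positive and 7 negative. By the read test 3 of 14 were higher (21.4%, beside 21.9% of all genes) and 4 lower (28.6%, beside 22.2%), and with expected shares from the trend 1 of 13 was higher and 3 lower. Their median log2 ratio was -0.05, and -0.01 without the trend. Spi1, which encodes the IRF4 and IRF8 partner PU.1, had 4668 and 3875 reads (-0.25, -0.04). Irf2bp2, a corepressor that binds IRF2, had 3707 and 3202 reads (-0.19, -0.32). Etv6 (0.02, -0.20) and Cbfb (0.02, -0.01) did not pass the test. Named afterward, Ikzf1 (0.53, 0.32), Stat2 (0.23, 0.12) and Nfatc1 (0.13, 0.02) were higher, and Spib (-0.45, -0.39) and Batf (-0.43, -0.09), whose products pair with IRF4 and IRF8, were lower.

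Of the genes that IRFs are known to regulate, the antiviral targets of IRF3, IRF7 and IRF9 had 14 of 21 genes kept, 9 of them with a negative log2 ratio. Their median was -0.17, and -0.05 without the trend. By the read test 1 of 20 was higher and 4 lower, beside 21.9% and 22.2% of all genes, and with expected shares from the trend 1 of 14 was higher and 2 lower. Ccl5, a chemokine, had 71 and 29 reads (-0.89, -0.51), and Isg15, a ubiquitin-like modifier, had 172 and 109 (-0.59, -0.25). Bst2 (tetherin) had 1101 and 800 reads (-0.44, -0.07) and Oas1a 405 and 337 (-0.23, -0.08). The 1 gene higher was Mx1, an antiviral GTPase named afterward, with 83 and 143 reads (0.45, 0.40). Oasl2 (0.07, 0.06) and Dhx58 (0.00, 0.09) did not pass the test.

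The targets assigned to IRF1, which serve class I antigen presentation and include guanylate-binding proteins, had the lowest median of the groups, -0.28 over 21 genes, or -0.10 over the 18 with a value without the trend. By the read test 13 of 21 were lower (61.9%, beside 22.2% of all genes) and 2 higher (9.52%, beside 21.9%), namely Gbp7 (0.51, 0.25) and Nlrc5 (log2 ratio 0.28), named afterward. With expected shares from the trend, 9 of 18 were lower and 1 higher. B2m, the invariant chain of class I molecules, had 25110 and 19599 reads (-0.34, -0.09). The heavy chains H2-D1 (-0.33, -0.17) and H2-K1 (-0.34, -0.10) are related in sequence, and how reads that fit both were counted is not given. Tapbp (tapasin) had 5094 and 4266 reads (-0.23, -0.15).

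For the targets of the fate factors the groups were mixed. Of the genes assigned to IRF4, 6 of 18 were higher (33.3%, beside 21.9% of all genes) and 5 lower (27.8%, beside 22.2%) by the read test, and with expected shares from the trend 6 of 17 were higher and 3 lower. Their median was -0.03, and 0.01 without the trend. Of the genes known from alternative activation, Arg1 had 9723 and 9644 reads (0.01, 0.19), Chil3 18135 and 18437 (0.04, 0.20) and Mgl2 10409 and 10581 (0.04, 0.22). Named afterward, Mrc1 had 1002 and 1438 reads (0.49, 0.25) and Retnla 1851 and 1748 (-0.06, 0.25). Of these 5 genes, Chil3 and Mrc1 passed the test. In the same group, Ccl17 (-0.21, 0.16), Ccl22 (-0.09, 0.01) and Klf4 (-0.03, 0.01), named afterward, did not pass it. The others higher, named afterward, were Ciita (0.32, 0.19), Prdm1 (0.22, 0.01), Kdm6b (0.19, -0.01) and Pdcd1lg2 (0.19, 0.35). Cd74, the invariant chain of class II molecules, had 18730 and 14275 reads (-0.37, -0.11), and the others lower, named afterward, were Ccr7 (-0.40, -0.24), H2-Aa (-0.46, -0.20), H2-Ab1 (-0.35, -0.04) and H2-Eb1 (-0.38, -0.10).

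Of the genes assigned to IRF8, 5 of 15 were higher (33.3%, beside 21.9% of all genes) and 4 lower (26.7%, beside 22.2%) by the read test, and with expected shares from the trend 4 of 13 were higher and 1 lower. Their median was -0.03, and 0.04 without the trend. Cybb, a subunit of the phagocyte oxidase, had 10573 and 14403 reads (0.46, 0.26) and Csf1r, the receptor for M-CSF, 10908 and 12000 (0.15, 0.04). The cathepsin gene Ctsc (0.06, 0.09) was higher and Ctss (-0.02, 0.17) did not pass the test. Named afterward, Zeb2 (0.57, 0.09) and Dab2 (0.45, 0.27) were also higher, and Pml (-0.48, -0.64), Cst3 (-0.40, -0.04), Ly86 (-0.37, -0.13) and Id2 (-0.16, 0.03) were lower.

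Of 12 negative regulators of IRF signaling, 6 were lower and 2 higher (16.7%) by the read test, beside 22.2% and 21.9% of all genes, the latter being Fbxw7 (0.22, 0.06) and Trim30a (0.23, 0.10), named afterward. With expected shares from the trend, 4 were lower and 0 higher. The median log2 ratio was -0.17, and -0.06 without the trend. Tnfaip3, which encodes the ubiquitin-editing enzyme A20, had 1709 and 944 reads, a ratio of 0.559 (95% interval 0.516 to 0.606), with a log2 ratio of -0.71, or -0.84 without the trend. Spop (-0.19, -0.21), Socs3 (-0.16, -0.02) and Trim28 (-0.15, -0.07) differed less.

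**Figure D5:**
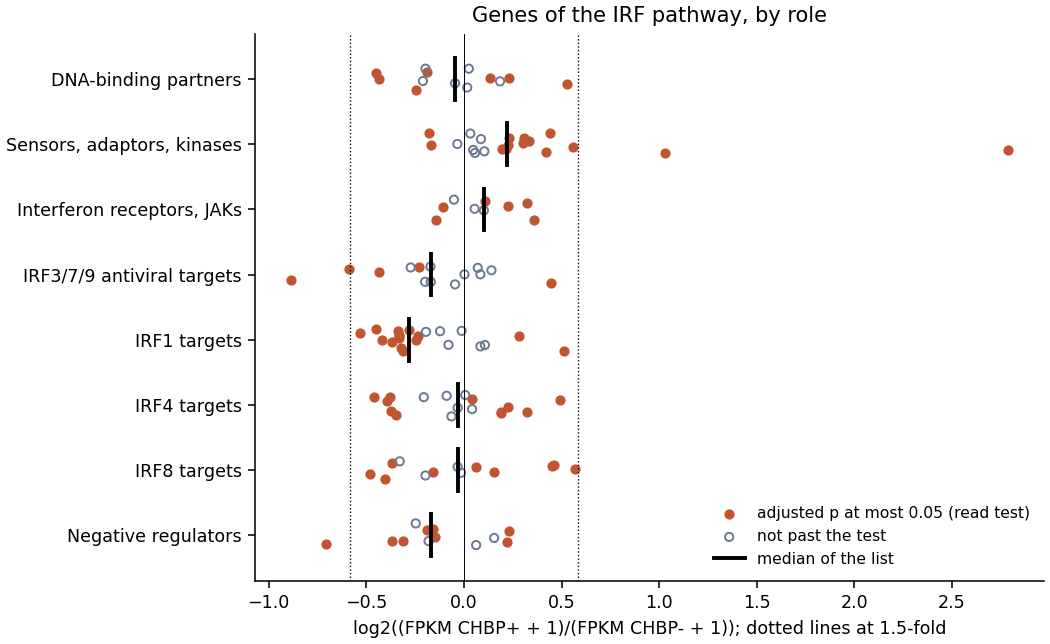
Log2 ratio of each gene kept in 8 groups of the IRF pathway, with filled points for an adjusted p of at most 0.05 in the exact binomial read test, vertical bars for medians and dotted lines at 1.5-fold. The group medians run from -0.28 for the IRF1 targets to 0.22 for the sensors, adaptors and kinases, where Tlr4 stands apart at 2.79.

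Markers of other cell types differed between the libraries beside these values. Irf4 and Irf8 are also expressed in B cells and dendritic cells, and in bulk RNA fewer cells of a type and less RNA per cell cannot be told apart. Calls are by the read test with library totals, by which 21.9% of all genes were higher and 22.2% lower. Sums are over all markers of a type, calls over those with at least 10 reads, and medians over those kept. The 8 B and plasma cell markers summed to 895 CPM in CHBP- and 754 in CHBP+ M-MDSC, with 5 lower and 0 higher, and their median log2 ratio was -0.23, or -0.08 without the length and GC trend. The 10 markers of type 2 dendritic cells summed to 2135 and 2336 CPM, with 2 higher and 1 lower. Their medians over 8 genes kept were -0.04 and 0.04. Most of the rise in that sum came from Itgax, with 9336 and 12253 reads (0.41, 0.33). The 8 markers of type 1 dendritic cells summed to 266 and 312 CPM, with 2 higher and 0 lower, and Xcr1 had 0 reads in both libraries. Their medians over 4 genes kept were 0.19 and 0.13. Nearly all of the rise in that sum came from Wdfy4, with 2051 and 2757 reads (0.41, -0.02). With expected shares from the length and GC trend, 1 of 4 was higher and 1 lower. The 8 plasmacytoid dendritic cell markers summed to 202 and 176 CPM, with 3 lower and 0 higher. Their medians over 4 genes kept were -0.41 and -0.13.

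The 10 macrophage markers summed to 1299 and 1426 CPM, with 3 higher and 0 lower. Their medians over 9 genes kept were 0.01 and 0.18, in the same order. The 11 M-MDSC markers filled 12 entries, as Itgam has 2, with 5 entries higher and 4 lower. Their sum of 15990.5 and 14322 CPM was set by Lyz2, and without it the other entries summed to 3639 and 4410 CPM, in the opposite direction. The rise without Lyz2 rests on the 2 entries of Itgam, which had 18653 and 8703 reads in CHBP- and 27265 and 13147 in CHBP+ M-MDSC. Ly6c2 went the other way, with 4091 and 2411 reads, so the sum does not show a rise of these markers as a group. The 10 neutrophil markers summed to 1865 and 1387 CPM, with 5 lower and 0 higher, and their median turned from -0.21 to 0.03 without the trend. Most of the fall in that sum came from S100a9, with 15224 and 11107 reads (-0.44, -0.12), and S100a8, with 9348 and 6258 (-0.56, -0.23). The others lower were Elane, Mpo and, named afterward, Ngp. Cxcr2 and Ly6g, and Ltf, Camp and Retnlg, named afterward, did not pass the test. The 10 mast cell and basophil markers summed to 839 and 768 CPM, with 2 higher and 5 lower. Their medians over 8 genes kept were -0.12 and -0.01. The 8 erythroid markers showed the widest gap in proportion, at 1865 and 788 CPM, with 6 lower and 0 higher. Most of that gap came from Hbb-bs, with 20238 and 5989 reads (-1.73, -1.41). The medians over 6 erythroid genes kept were -0.61 and -0.28. The 8 T cell markers summed to 19.5 and 16.8 CPM, with none past the test. The part of these cells in the Irf values was not tested.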

How the data were processed

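mRNA of 2 libraries, 1 per condition, was grouped by the labels' titles. The submitters' processing notes name HISAT2 2.0.4, Cufflinks 2.1.1 and Cuffdiff on GRCm38, while the study's methods name TopHat2 and HT-seq on mm9. The coordinates in the files overlap those of RefSeq genes on GRCm38 for 99.9% of 10271 matched genes and were taken as GRCm38. The authors filtered adapters, low-quality ends, short reads and ribosomal reads, and the deposited counts are raw reads per gene. The deposited FPKM are those counts scaled to a gene length and to the sum over all genes of the library. The handling of strand and of multi-mapping reads is not given in the sources used here. Columns of other series numbered 0.

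From these, log2 ratios with a pseudocount of 1 FPKM, exact Poisson intervals of levels, Clopper-Pearson intervals of read ratios and the exact binomial read test with Benjamini-Hochberg adjustment were computed in Python 3.11.15 (numpy 2.4.6, pandas 2.3.3, scipy 1.17.1, figures with matplotlib 3.10.9). Trimmed mean of M values library sizes came from edgeR 4.0.16 in R 4.3.3. The script of the read test was tested on simulated data. No replicate model could be fitted with 1 library per condition. Trends with length or with length and GC content were least-squares quadratics over all genes kept, with transcript lengths and GC content from GENCODE M1 (mm9) by gene identifier, found for 93.3% of genes kept. Named were the Irf members, from each group the genes at least 1.5-fold apart and the 4 with the most reads, and the 3 genes nearest to Irf4 and to Irf8. The members and lists were chosen with earlier results of these data known. Alternatives were a pseudocount of 0.1 FPKM, no filter or at least 5 FPKM, CPM, a fold of 2, median centring, TMM, both trends, no minimum of reads, and sums over overlapping genes. Chosen after seeing the data were the comparison of lengths behind the levels, list medians under other settings, and the length and GC trend in the balance, in counts over all genes and in the read test, and the M-MDSC markers without Lyz2. Protein sequences were not used here, and some genes of these groups are not reported here.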

Additional observations from a re-analysis of the deposited data

How the results depend on the processing

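No paired analysis was possible because each condition has 1 library, and for the same reason no replicate could be left out and neither DESeq2 nor edgeR's quasi-likelihood test could be run. Under 51 alternatives for the members' log2 ratios, 43 values stayed within the counting interval and 8 did not. Signs turned in 3 cases. For Irf7 with overlapping reads summed (0.35), Phrf1 supplied most of the reads, so that sum does not bear on Irf7. The others were Irf7 and Irf8 without the length and GC trend (both 0.03). Without that trend Irf4 went from 0.38 to 0.22 and the balance of Irf4 to Irf8 from 0.44 to 0.18. Genes at least 1.5-fold apart went from 374 higher and 316 lower of 10948 kept to 189 and 100 of the 10211 with that trend. Expected shares from that trend in the read test gave 3 members higher and 0 lower. Over all genes they gave 1523 higher and 1714 lower of 10211 tested, in place of 3097 and 3145 of 14162. Removal of the trend with gene length took Irf8 from -0.04 to -0.13 and the genes lower to 165. Genes higher and lower were 85 and 46 with a fold of 2, 218 and 209 with at least 5 FPKM, and 665 and 571 with a pseudocount of 0.1 FPKM, and CPM gave 609 and 395. The members at least 1.5-fold apart stayed at 0 under each alternative run. Among 24 recomputed list medians, 4 changed sign, those of the IRF4 and IRF8 targets. Depth limits Irf7, which had the fewest reads of the members.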
